A study of Mus musculus with 21 samples.

Results

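The germline and meiosis genes of this report are a list of 44 gene symbols. It was drawn up as germ cell genes methylated or repressed by the Polycomb complex PRC1.6 in embryonic stem cells, with cohesin subunits of meiosis. Neither kind of repression was measured here, and most members had transcripts in wild type (WT) cells. The 44 symbols were chosen by name, with earlier results of these data known. Of these symbols, 42 have a row in count tables of 23412 genes. Of the 42, 39 had enough counts to be tested, among 14963 tested genes in all. Asz1, Spo11 and Nanos2 were not tested, with between 0 and 7 raw counts per library. Meioc and Majin are held under the older names Gm1564 and 1700123I01Rik, so they were not counted among the 42 and are described at the end.

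RNA was sequenced from v6.5 mouse embryonic stem cells (mESCs), a male line, in 7 groups of 3 libraries. WT cells received siGLO, a control siRNA, or siPds5b. Pds5b-/- cells received siGLO, and Pds5a-/- cells received siGLO, siPds5b, siStag1 or siStag2. Every well was transfected with 50 nM siRNA and harvested after 48 hours. Each knockout (labelled KO in the plots) is 1 CRISPR clone, so effects of the clone and of the gene cannot be told apart. The study calls its count replicates biological, but no label says that they were separate cultures, and p-values measure the spread between these libraries, which may be in part technical. The Pds5a-/- siPds5b cells are called dual depletion here. Total counts per library were between 17311090 and 23989198. The targets of the siRNAs fell as labelled, with log2 fold changes of -1.52 (Pds5b in WT), -1.39 (Pds5b in Pds5a-/-), -2.08 (Stag1) and -1.90 (Stag2), and Pds5b transcript fell in Pds5b-/- cells (log2 fold change -3.01, standard error 0.12, adjusted p = 8.81e-14). Pds5a transcript in Pds5a-/- siGLO cells missed the threshold (log2 fold change -0.24, standard error 0.09, adjusted p = 0.0415), and the edits of that clone lie in an early exon, so the transcript level checks little. Bulk RNA does not tell fewer cells with a transcript from less transcript per cell.

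Germ cells carry a set of genes that other cells mostly keep silent. Many have promoters rich in CpG, where DNA methyltransferases and, in mESCs, PRC1.6 act; PRC1.6 reaches DNA through MGA with MAX, which bind the E-box, and through E2F6. In meiosis the synaptonemal complex zips homologous chromosomes together along axes built on a special cohesin that holds REC8, STAG3 and SMC1B. The piRNA pathway, with its Tudor domain and PIWI proteins, silences transposons in the germline. PDS5A and PDS5B bind cohesin and regulate its release and its stability on DNA, and STAG1 and STAG2 are the STAG subunits of mitotic cohesin.

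In the WT siGLO libraries the members spanned more than 3 orders of magnitude in normalized counts per kilobase of exon. The length was that of all annotated exons of a gene together, not of the transcripts present, so levels compare only roughly between genes. Syce2, a central element protein of the synaptonemal complex, stood first at 949.9 ± 59.94 (SD, n = 3), and its lowest library, 881.6, lay above every library of the next gene. Tex19.1, a gene of germ cells and placenta that restrains retrotransposons, followed at 549.5 ± 71.94, and its libraries overlapped those of Rpl10l, at 524.8 ± 113. Ddx4, Tdrd12, Hormad1 and Tex14 came next at 233.7, 220.6, 215.9 and 202.4, and their spreads overlapped. Sycp2 was near the low end, at 3.14 ± 1.13, and Tdrd6 had the lowest level of the tested genes, at 0.567 ± 0.453. A stem cell culture thus held transcripts of most members, at very unequal levels. Levels of Rpl10l, a retrogene nearly identical to Rpl10, and of Tex19.1, which has a close paralog, are uncertain where reads fit both copies.

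**Figure D1:**
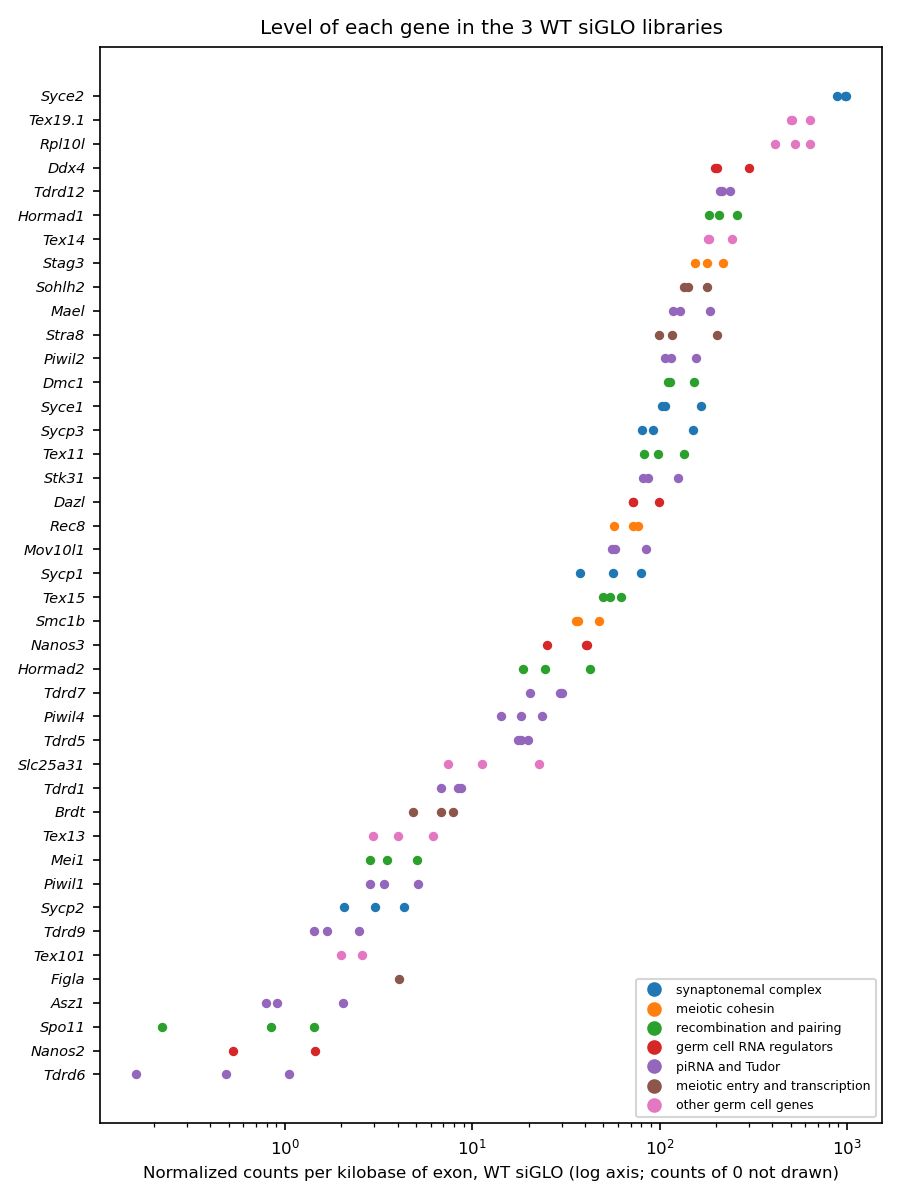
Normalized counts per kilobase of exon (log axis) of the 42 genes with a row, in the 3 WT siGLO libraries, 1 point per library, coloured by role. Syce2 was highest at 949.9, and Sycp2 lay near the low end at 3.14.

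Replicate 1 stood apart in both WT groups before any comparison. WT siGLO replicate 1 was the highest of its group for 33 of the 39 tested members, against 36.7% of all tested genes, and the summed normalized counts of the members were 15010 in it, 11520 in replicate 2 and 11580 in replicate 3. WT siPds5b replicate 1 was the highest of its group for 31 of the 39, with sums of 15600, 12640 and 12510. The median member deviated by 0.30 on the log2 scale from the group mean in the former library and by 0.26 in the latter, and the first libraries of the other groups deviated by between -0.10 and 0.09. Replicate 1 was also the highest for 23 of the 39 in Pds5a-/- siGLO, 21 in Pds5b-/-, 20 after dual depletion and 18 with siStag1. In these groups it was the highest for 35.1% to 37.1% of all genes. In Pds5a-/- cells with siStag2, replicate 3 was the highest of its group for 23 of the 39, against 31.3% of all genes, with sums of 12270, 13220 and 14070 and a median deviation of 0.12. Counts of members called against WT siGLO are given with and without WT siGLO replicate 1, in all and for the roles with more than 3 tested genes.

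**Figure D2:**
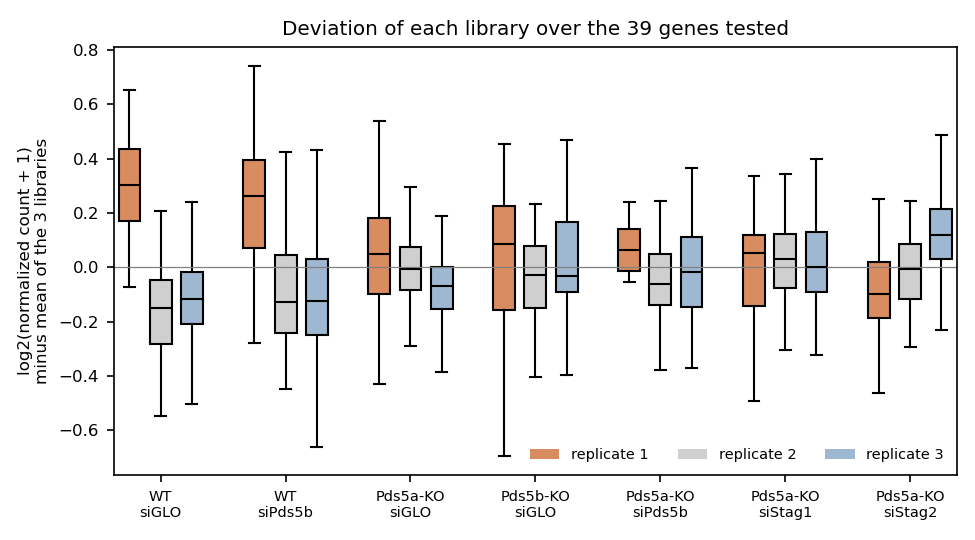
Deviation of log2(normalized count + 1) from the mean of the 3 libraries of a group, over the 39 tested genes (box: quartiles and median; whiskers: 1.5 times the box or the farthest gene within it). Replicate 1 of WT siGLO and of WT siPds5b lies above its group, with medians of 0.30 and 0.26.

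Every comparison below was tested with edgeR's quasi-likelihood test on all 14963 genes, adjusted over them by the Benjamini-Hochberg method, and a gene is said to rise or fall, or is called, at an adjusted p under 0.01. In Pds5a-/- siGLO cells 14 of the 39 members were called against WT siGLO (35.9%, against 17.8% of all genes tested), 9 of them higher and 5 lower, where 9.63% of all genes were higher and 8.12% lower. In Pds5b-/- siGLO cells 12 were called (30.8%, against 18.2% of all genes), 8 higher and 4 lower, where 9.64% of all genes were higher and 8.57% lower. Dual depletion called 21 against WT siGLO (53.8%, against 32.0%), 16 higher and 5 lower, where 17.4% of all genes were higher and 14.6% lower. The median log2 fold change of the 39 members was 0.17, 0.24 and 0.58 in these comparisons and 0.12 for siPds5b in WT cells, and that of all genes was within 0.01 of 0. These comparisons share their WT siGLO libraries. The members were chosen with earlier results of these data known, so their shares are no independent test against all genes. Without WT siGLO replicate 1, the calls were 14 (11 higher, 3 lower), 13 (11 higher, 2 lower) and 16 (14 higher, 2 lower), with 13.1%, 13.6% and 25.5% of all genes called. Without it the median log2 fold changes were 0.28 and 0.41 in the knockouts, 0.58 after dual depletion and 0.29 for siPds5b in WT cells, so that of Pds5a-/- was no larger than that of the WT knockdown, in which 0 members were called.

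The siRNAs called fewer members than the knockouts did. In WT cells siPds5b called 0 of 39 members with edgeR and 0 with DESeq2, against 0.00668% of all genes with edgeR. At an unadjusted p under 0.05 with edgeR were 3 members and 631 of all 14963 genes. In Pds5a-/- cells siPds5b called 5 members against siGLO (12.8%, against 7.59%), 4 higher and 1 lower, where 599 of all genes (4%) were higher and 537 (3.59%) lower. siStag1 called 1 member, higher (2.56%, against 0.0936% of all genes, 0.0134% higher and 0.0802% lower). siStag2 called 1 member, higher (2.56%, against 2.24% of all genes, 0.969% higher and 1.27% lower), a share near that of all genes. The median member log2 fold change in Pds5a-/- cells was 0.23 with siPds5b, 0.33 with siStag1 and -0.03 with siStag2. That of all genes was -0.0004, -0.006 and 0.008. In the same order, 15, 19 and 6 members had an unadjusted p under 0.05 with edgeR, as had 4379, 1598 and 3783 of all genes. Within Pds5a-/- cells siStag2 called 1 member against siStag1, lower (2.56%, against 0.394% of all genes, 0.167% higher and 0.227% lower), and 4 against siPds5b, 1 higher and 3 lower (10.3%, against 3.96%, with 1.92% of all genes higher and 2.04% lower). Samples with the same replicate number deviated together where an siRNA was compared with siGLO in cells of 1 genotype. With that number as a block, edgeR called 4 members for siStag1. For siPds5b in Pds5a-/- cells the block kept the 5 calls and added Syce1 (log2 fold change 0.55, adjusted p = 0.00668) and Tdrd7 (0.70, adjusted p = 0.00421). In all, 28 of the 39 tested members were called in at least 1 of the 11 comparisons made and 11 in none. The share of all genes called in at least 1 comparison was not counted, so the 28 cannot be set against it.

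**Figure D3:**
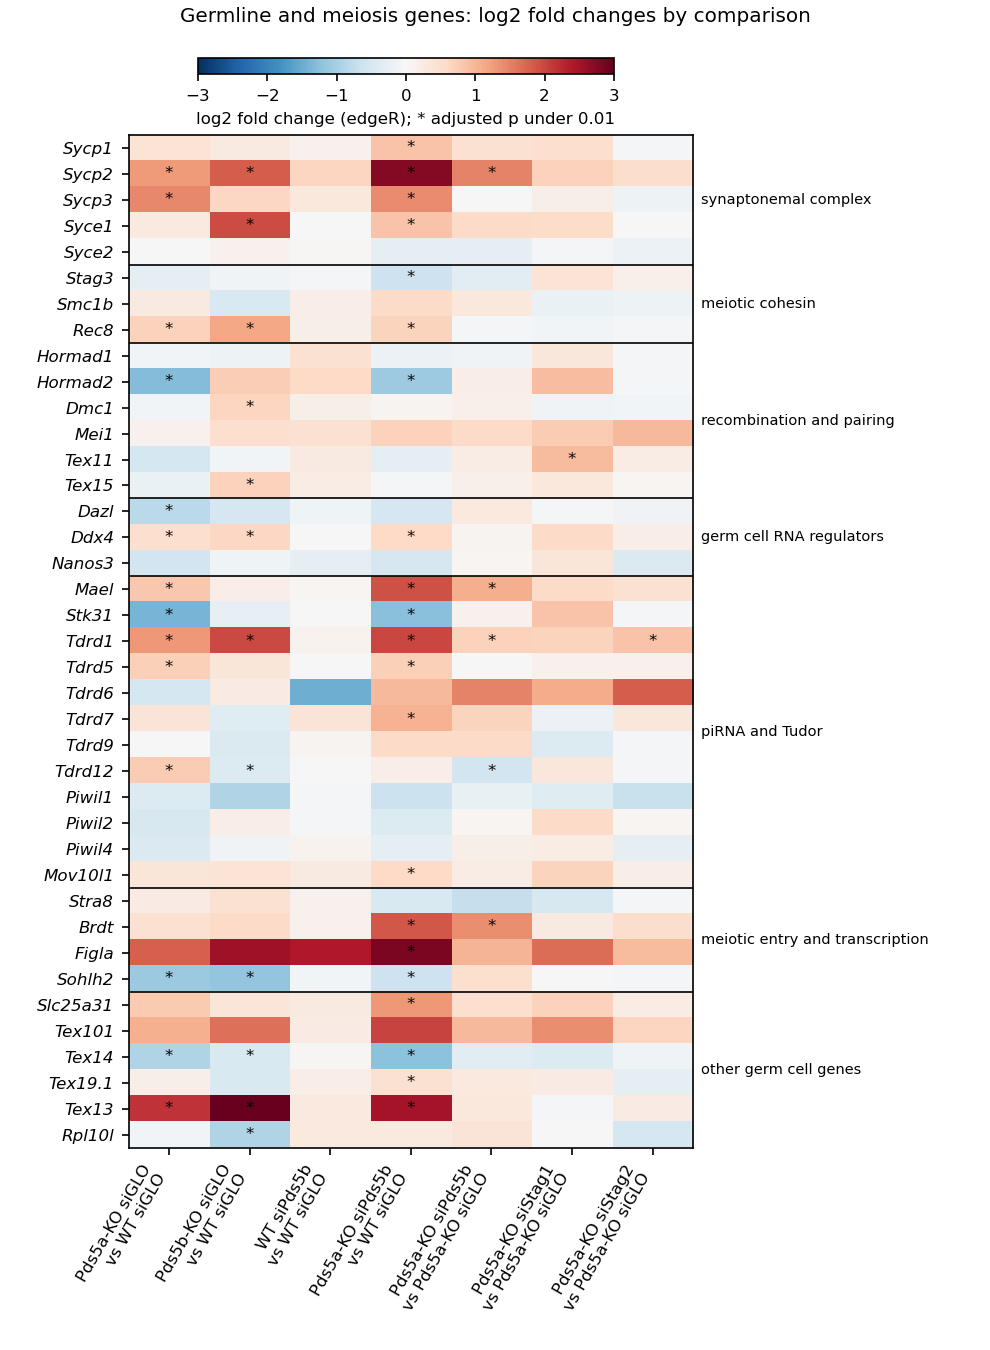
edgeR log2 fold changes of the 39 tested genes (rows, grouped by role) in 7 comparisons (columns); red is higher and blue lower in the first-named group, the colours saturate at 3 and -3, and an asterisk marks an adjusted p under 0.01. Sycp2, Tdrd1 and Tex13 rose in both knockouts and after dual depletion, while Tex14 and Sohlh2 fell in all 3; Tdrd6, Tex101 and Figla have few counts.

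**Figure D4:**
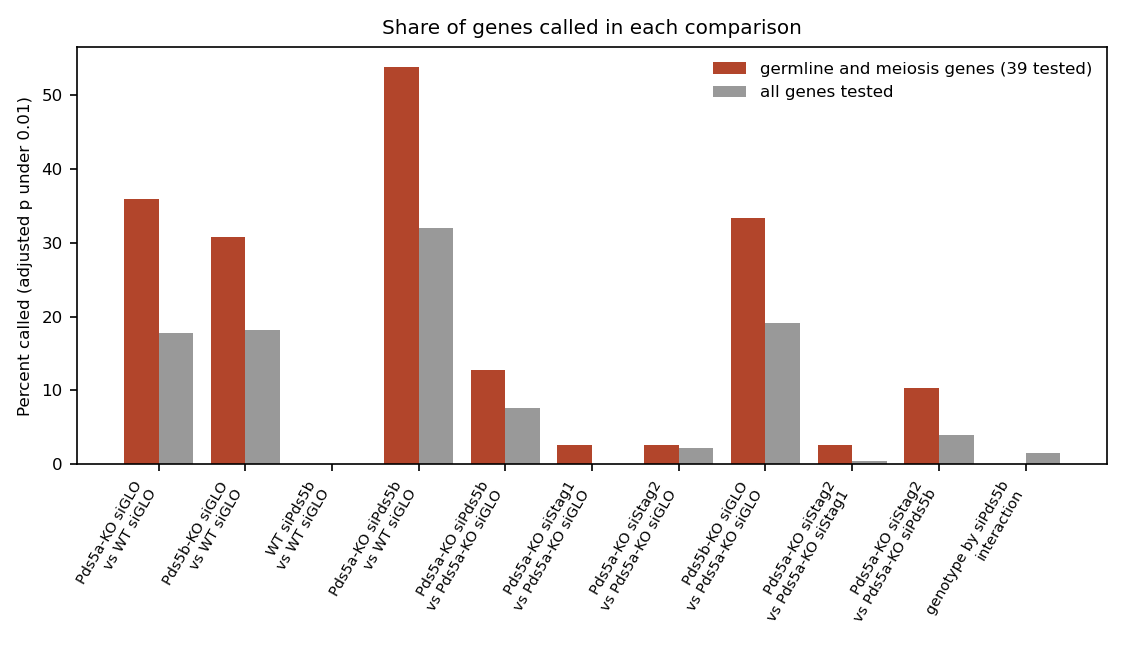
Percent of genes called at an adjusted p under 0.01 in each of the 11 comparisons, for the 39 tested members and for all 14963 genes. The share of members was 53.8% after dual depletion, against 32.0% of all genes.

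The promoters of members that rose and fell are shown because the list was drawn up around PRC1.6 and DNA methylation. RefSeq windows on GRCm38.p6 (mm10), taken as the 250 bases before the start, were given for 37 of the 42 members. The E-box CACGTG, which is the same on both strands, was found in 13 of the 37 (35.1%), against 6.04% of the 27025 promoters given and 8.46% of those of tested genes. The letters GCGGGA, which resemble an E2F6 site, were found on either strand in 12 (32.4%), against 16.9% of all and 30.4% of those of tested genes. Matches of the 2 motifs overlapped in 1 promoter of all and in 0 of the members'. The median ratio of observed to expected CpG was 0.639 in the members, 0.379 in all promoters and 0.714 in those of tested genes. Among the members with a promoter given, 8 of the 16 that rose after dual depletion held the E-box, as did 2 of the 5 that fell and 3 of the 14 that passed neither way. A match is a run of letters and not a measured binding site. The 5 below are members with large changes, 4 with the E-box, of which Stk31 fell, and Sycp2, which had the largest rise of the synaptonemal genes after dual depletion and holds neither motif. Capitals mark CACGTG and GCGGGA or its reverse complement.
Tdrd1, chr19:56825959-56826208, plus strand: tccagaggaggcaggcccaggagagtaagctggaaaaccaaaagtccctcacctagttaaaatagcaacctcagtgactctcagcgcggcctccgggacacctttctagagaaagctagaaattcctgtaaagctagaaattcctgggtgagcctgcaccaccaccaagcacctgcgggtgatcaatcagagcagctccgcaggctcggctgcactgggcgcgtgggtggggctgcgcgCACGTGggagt
Mael, chr1:166238745-166238994, minus strand: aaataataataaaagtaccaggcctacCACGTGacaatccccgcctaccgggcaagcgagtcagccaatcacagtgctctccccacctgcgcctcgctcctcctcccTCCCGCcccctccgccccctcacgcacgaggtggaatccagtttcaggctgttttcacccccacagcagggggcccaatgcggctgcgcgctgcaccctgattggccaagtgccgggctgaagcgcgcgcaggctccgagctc
Sycp3, chr10:88459337-88459586, plus strand: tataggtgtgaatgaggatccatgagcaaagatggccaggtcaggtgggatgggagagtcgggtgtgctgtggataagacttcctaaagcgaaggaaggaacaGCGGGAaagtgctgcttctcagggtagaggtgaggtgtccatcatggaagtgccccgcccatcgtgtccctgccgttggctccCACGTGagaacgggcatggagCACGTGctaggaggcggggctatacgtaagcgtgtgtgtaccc
Stk31, chr6:49395289-49395538, plus strand: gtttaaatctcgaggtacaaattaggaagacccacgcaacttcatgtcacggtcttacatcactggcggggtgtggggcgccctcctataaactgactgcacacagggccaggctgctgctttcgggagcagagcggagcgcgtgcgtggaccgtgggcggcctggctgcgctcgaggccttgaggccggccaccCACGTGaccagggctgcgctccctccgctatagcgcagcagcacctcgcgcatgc
Sycp2, chr2:178407659-178407908, minus strand: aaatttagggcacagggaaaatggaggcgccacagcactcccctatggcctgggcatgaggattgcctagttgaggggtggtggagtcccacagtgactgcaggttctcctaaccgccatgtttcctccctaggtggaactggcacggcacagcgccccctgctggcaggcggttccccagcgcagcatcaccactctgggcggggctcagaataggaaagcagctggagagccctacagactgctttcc

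Of the 5 genes of the synaptonemal complex, 4 rose and 0 fell after dual depletion, with a median log2 fold change of 0.86, where 17.4% of all genes were higher and 14.6% lower. In each knockout 2 rose and 0 fell, where 9.63% of all genes were higher and 8.12% lower in Pds5a-/-, and 9.64% and 8.57% in Pds5b-/-. Without WT siGLO replicate 1, 4 rose after dual depletion, 2 in Pds5a-/- and 3 in Pds5b-/-. Sycp2, which encodes a protein of the lateral elements, lies on chromosome 2 from 178345293 to 178407685 of mm10. Its normalized counts were 25.78, 18.02 and 12.4 in WT siGLO, 63.99, 35.54 and 36.63 in Pds5a-/-, 58.06, 75.77 and 64.06 in Pds5b-/- and 142.9, 114 and 125.6 after dual depletion. No library of the knockouts or of dual depletion overlapped WT siGLO, and dual depletion was above both knockouts in every library. The change from WT siGLO was 6.78-fold after dual depletion (log2 fold change 2.76, standard error 0.28, adjusted p = 2.51e-08), with log2 fold changes of 1.27 in Pds5a-/- (adjusted p = 0.00228) and 1.81 in Pds5b-/- (adjusted p = 4.32e-05). Adding siPds5b to Pds5a-/- cells raised it further (log2 fold change 1.50, standard error 0.25, adjusted p = 0.000184). The Pds5a-/- call was lost without WT siGLO replicate 3 or Pds5a-/- siGLO replicate 1, left out 1 at a time (adjusted p 0.0246 to 0.0254).

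Sycp3, the main lateral element protein, on chromosome 10 from 88459569 to 88473236, had normalized counts of 190.8, 116 and 101.7 in WT siGLO, 415.4, 334.8 and 364.3 in Pds5a-/-, 179.4, 220.3 and 230 in Pds5b-/- and 399.5, 360.7 and 342.9 after dual depletion. Its level in Pds5a-/- cells was above every WT library whether or not siPds5b was added. It rose in Pds5a-/- (log2 fold change 1.44, standard error 0.19, adjusted p = 8.75e-06) and after dual depletion (log2 fold change 1.43, standard error 0.19, adjusted p = 3.78e-06), and missed the threshold in Pds5b-/- (log2 fold change 0.62, standard error 0.20, adjusted p = 0.0212), a comparison that passed without WT siGLO replicate 1 (log2 fold change 0.97, adjusted p = 0.000699). Compared directly, Pds5b-/- was lower than Pds5a-/- (log2 fold change -0.82, standard error 0.19, adjusted p = 0.00215), a call lost without Pds5a-/- siGLO replicate 1 or Pds5b-/- siGLO replicate 1, left out 1 at a time (adjusted p 0.0128 to 0.0214).

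Syce1, a central element protein on chromosome 7 from 140777229 to 140787852, took the other direction between the knockouts. Its normalized counts were 242.3, 150.9 and 155.5 in WT siGLO, 238.7, 235.7 and 201.4 in Pds5a-/-, 831.8, 626.1 and 693.1 in Pds5b-/- and 388, 311 and 299 after dual depletion. The 3 Pds5b-/- libraries were the highest of all 21. The change was 3.9-fold in Pds5b-/- against WT siGLO (log2 fold change 1.96, standard error 0.19, adjusted p = 8.38e-08) and 3.18-fold against Pds5a-/- (log2 fold change 1.67, standard error 0.18, adjusted p = 5.72e-07), and dual depletion also raised it (log2 fold change 0.86, standard error 0.19, adjusted p = 0.000819). In Pds5a-/- alone the log2 fold change was 0.29 (adjusted p = 0.274).

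Sycp1, the transverse filament protein that spans the complex, had normalized counts of 281.8, 134 and 200.1 in WT siGLO and 406.7, 379.4 and 331.9 after dual depletion, without overlap (log2 fold change 0.85, standard error 0.23, adjusted p = 0.00488). The call was lost without WT siGLO replicate 2 or 3 or Pds5a-/- siPds5b replicate 1 or 2, left out 1 at a time (adjusted p 0.0172 to 0.0295). Syce2, the most abundant member per kilobase, passed in none of the 11 comparisons, with a log2 fold change of -0.28 after dual depletion (adjusted p = 0.0349). It lies on chromosome 8, where 729 tested genes had a median of -0.23 in that comparison. The part of the whole chromosome in the value of Syce2 was not tested.

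The 3 cohesin subunits of meiosis did not move together. Rec8, the kleisin of meiotic cohesin on chromosome 14 from 55618037 to 55625395, had normalized counts of 225.1, 211.8 and 167.9 in WT siGLO, 281.4, 329.2 and 360.5 in Pds5a-/-, 458.1, 443.7 and 449.4 in Pds5b-/- and 216.6, 349.3 and 391.7 after dual depletion. All knockout libraries lay above WT siGLO, while 1 dual depletion library lay within its range. Pds5b-/- was above Pds5a-/- in every library, with a difference that missed the threshold (log2 fold change 0.48, standard error 0.16, adjusted p = 0.0292). Rec8 rose in Pds5a-/- (log2 fold change 0.69, standard error 0.17, adjusted p = 0.00377), in Pds5b-/- (log2 fold change 1.16, standard error 0.17, adjusted p = 1.82e-05) and after dual depletion (log2 fold change 0.66, standard error 0.17, adjusted p = 0.00293). The Pds5a-/- call was lost without WT siGLO replicate 2 or 3 or Pds5a-/- siGLO replicate 2 or 3, left out 1 at a time (adjusted p 0.0101 to 0.033), and that of dual depletion without WT siGLO replicate 3 or Pds5a-/- siPds5b replicate 2 or 3, left out 1 at a time (adjusted p 0.0174 to 0.0328).

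Stag3, the meiotic STAG subunit on chromosome 5 from 138280240 to 138312393, had normalized counts of 1242, 1024 and 889.8 in WT siGLO, 809.5, 764.1 and 1033 in Pds5a-/-, 1013, 1031 and 904.7 in Pds5b-/- and 665.9, 616.8 and 770.4 after dual depletion. It fell after dual depletion only among the 11 comparisons (log2 fold change -0.62, standard error 0.16, adjusted p = 0.00293), with log2 fold changes of -0.28 and -0.10 in the knockouts (adjusted p = 0.198 and 0.659). The call was lost without WT siGLO replicate 1 or Pds5a-/- siPds5b replicate 1 or 2, left out 1 at a time (adjusted p 0.0121 to 0.023). With siStag1 in Pds5a-/- cells Stag3 had 962.1, 1205 and 1275 normalized counts and with siStag2 1094, 789.9 and 1012, and neither siRNA was called against Pds5a-/- siGLO (log2 fold change 0.40, adjusted p = 0.319, and 0.15, adjusted p = 0.572). Smc1b, the meiotic partner of SMC3, passed in none of the 11 comparisons, with normalized counts of 191.6, 147.6 and 144.7 in WT siGLO, 109.8, 110.7 and 134.9 in Pds5b-/- and 245.1, 182.4 and 299 after dual depletion. Its Pds5b-/- libraries all lay below WT siGLO, with a log2 fold change of -0.45 (adjusted p = 0.134), and dual depletion overlapped WT siGLO (0.58, adjusted p = 0.0303).

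Set beside the mitotic subunits, Stag3 was near the lower of the STAG genes per kilobase of annotated exon. In WT siGLO it stood at 183.5 ± 31.01 (SD, n = 3), Stag1 at 209 ± 20.76 and Stag2 at 408.2 ± 29.47, and the Stag3 and Stag1 libraries overlapped. The lengths used were 5.733 kb for Stag3 and 11.781 kb for Stag1, so their closeness depends on the exons annotated. Rec8 and Smc1b, at 68.7 ± 10.2 and 39.9 ± 6.49, were far below Rad21 at 2283 ± 154.4 and Smc1a at 914.8 ± 41.95. With siStag1 the level of Stag1 was 48.8 ± 5.07 per kilobase and that of Stag3 was 200.1 ± 28.64, so every Stag3 library was then above every Stag1 library. Of 9 tested genes in the mitotic cohesin list, 0 were called in Pds5a-/-, 2 in Pds5b-/- (Mau2 higher, Pds5b lower) and 3 after dual depletion, all lower (Pds5b, Pds5a and Rad21, the last with a log2 fold change of -0.24). Pds5a and Pds5b are the depleted genes themselves. Of all genes, 17.8%, 18.2% and 32.0% were called in these comparisons, and 14.6% were lower after dual depletion.

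**Figure D5:**
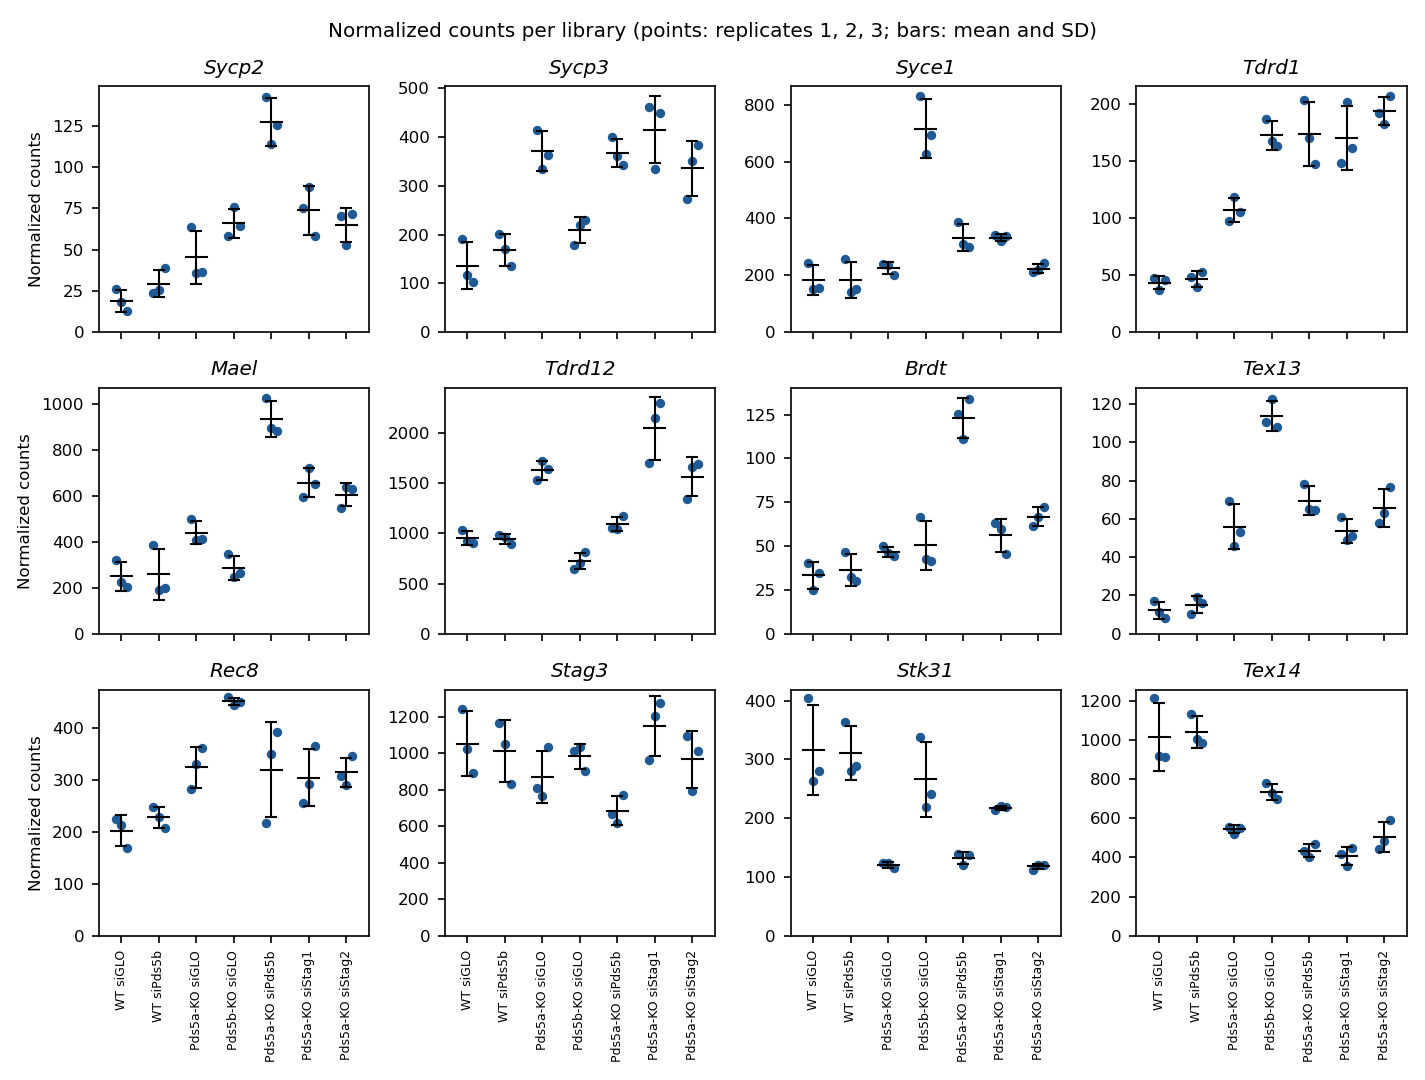
Normalized counts of 12 members in each of the 21 libraries; points are replicates 1, 2 and 3 of each group, horizontal bars the mean and vertical bars the SD. Sycp2 was highest after dual depletion (114 to 142.9) and Syce1 in Pds5b-/- (626.1 to 831.8). Stk31 was low in Pds5a-/- with siGLO, siPds5b or siStag2 and, less so, with siStag1.

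Of the 6 tested genes of recombination and homolog pairing, 2 rose and 0 fell in Pds5b-/- (9.64% of all genes higher and 8.57% lower), 0 rose and 1 fell in Pds5a-/- (9.63% and 8.12%), and 0 rose and 1 fell after dual depletion (17.4% and 14.6%). Without WT siGLO replicate 1 the counts were 3 higher and 0 lower in Pds5b-/-, and 0 either way in Pds5a-/- and after dual depletion. In the direct comparison 3 were higher in Pds5b-/- than in Pds5a-/- and 0 lower (9.46% and 9.74% of all genes). Hormad2, a protein of unsynapsed chromosome axes, had normalized counts of 116, 66.46 and 51.27 in WT siGLO, 25.39, 38.35 and 30.84 in Pds5a-/-, 109.8, 137.6 and 145.6 in Pds5b-/- and 28.41, 37.32 and 43.85 after dual depletion. Libraries of Pds5a-/- lay below all WT siGLO libraries, and those of Pds5b-/- overlapped them at the upper end. Hormad2 was 4.13-fold higher in Pds5b-/- than in Pds5a-/- (log2 fold change 2.05, standard error 0.27, adjusted p = 3.26e-06). Its fall against WT siGLO in Pds5a-/- (log2 fold change -1.30, standard error 0.27, adjusted p = 0.000864) was lost without WT siGLO replicate 1 (adjusted p of 0.0152), and that after dual depletion (log2 fold change -1.10, standard error 0.27, adjusted p = 0.00177) was lost without WT siGLO replicate 1 or Pds5a-/- siPds5b replicate 1, left out 1 at a time (adjusted p 0.0125 to 0.0375). In Pds5b-/- it missed the threshold (log2 fold change 0.75, adjusted p = 0.0216) and passed it without WT siGLO replicate 1 (log2 fold change 1.18, adjusted p = 0.000941).

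Dmc1, the recombinase of meiosis, had 370.4, 277.1 and 268.8 normalized counts in WT siGLO, 297.6, 294.6 and 276.6 in Pds5a-/- and 480.3, 466.6 and 482.4 in Pds5b-/-, and the Pds5b-/- libraries overlapped neither group. It rose in Pds5b-/- against WT siGLO (log2 fold change 0.64, standard error 0.13, adjusted p = 0.000463) and against Pds5a-/- (log2 fold change 0.72, standard error 0.13, adjusted p = 0.000144). Tex15, needed for repair of meiotic breaks and for transposon silencing, had 600.6, 482.1 and 521 in WT siGLO, 525.1, 432.1 and 438.5 in Pds5a-/- and 985.9, 869.4 and 749.4 in Pds5b-/-, again without overlap of the last group with the others. Its log2 fold changes in Pds5b-/- were 0.70 against WT siGLO (adjusted p = 0.000249) and 0.90 against Pds5a-/- (adjusted p = 1.34e-05). Tex15 lies on chromosome 8, where the median log2 fold change of 729 tested genes was 0.30 and 0.48 in these comparisons, and -0.20 in Pds5a-/- against WT siGLO; the part of the whole chromosome in the change of Tex15 was not tested. Syce2 and Nanos3 lie on the same chromosome.

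Tex11, which promotes crossovers, had 288.5, 252.5 and 260.2 normalized counts in Pds5a-/- siGLO and 545.5, 520 and 493.5 with siStag1, and the groups did not overlap. It was the member called with siStag1 (log2 fold change 0.96, standard error 0.15, adjusted p = 0.00285), and WT siGLO had 487.2, 298.5 and 357.2. The call was lost without Pds5a-/- siGLO replicate 2 or 3 or Pds5a-/- siStag1 replicate 1, 2 or 3, left out 1 at a time (adjusted p 0.0113 to 0.0483). With the replicate number as a block, Stk31 (log2 fold change 0.85, adjusted p = 0.00291), Piwil2 (0.57, 0.00291) and Mov10l1 (0.69, 0.00796) were called as well.

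The germ cell RNA regulators Dazl and Ddx4 moved apart. Ddx4, the VASA helicase of germ granules on chromosome 13 from 112598333 to 112652475, had normalized counts of 908.3, 592.5 and 611.9 in WT siGLO, 1039, 1019 and 956.1 in Pds5a-/-, 1190, 1010 and 1083 in Pds5b-/- and 1048, 1085 and 1072 after dual depletion. Every library of the last 3 groups was above WT siGLO. It rose by 1.42-fold in Pds5a-/- (log2 fold change 0.51, standard error 0.12, adjusted p = 0.00322), 1.55-fold in Pds5b-/- (adjusted p = 0.000491) and 1.51-fold after dual depletion (adjusted p = 0.000404), and the Pds5a-/- call was lost without WT siGLO replicate 2 or 3 or Pds5a-/- siGLO replicate 1 or 2, left out 1 at a time (adjusted p 0.013 to 0.0322). Dazl, an RNA-binding protein that promotes translation in germ cells, on chromosome 17 from 50279395 to 50293636, had 378.1, 276 and 274.5 in WT siGLO, 183.8, 174 and 176.4 in Pds5a-/-, 272.3, 177.5 and 206.8 in Pds5b-/- and 234.4, 226 and 190.4 after dual depletion. The last 3 groups lay below WT siGLO in every library. It was called lower in Pds5a-/- (log2 fold change -0.80, standard error 0.17, adjusted p = 0.00128), and missed the threshold in Pds5b-/- (log2 fold change -0.50, adjusted p = 0.0291) and after dual depletion (-0.51, 0.0178). The Pds5a-/- call was lost without WT siGLO replicate 1 (adjusted p of 0.0152).

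Of the 12 tested genes of the piRNA pathway and Tudor family, 5 rose and 1 fell after dual depletion, where 17.4% of all genes were higher and 14.6% lower. In Pds5a-/- 4 rose and 1 fell (9.63% and 8.12% of all genes), and in Pds5b-/- 1 rose and 1 fell, shares near the 9.64% and 8.57% of all genes. Without WT siGLO replicate 1, 4 rose and 1 fell after dual depletion, 5 rose and 1 fell in Pds5a-/-, and 2 rose and 0 fell in Pds5b-/-. Tdrd1, a Tudor protein that binds PIWI proteins, lies on chromosome 19 from 56826209 to 56870012. Its normalized counts were 47.26, 37.17 and 45.48 in WT siGLO, 97.51, 118.8 and 105.1 in Pds5a-/-, 186.8, 167.5 and 163.1 in Pds5b-/-, 203.3, 170 and 147.5 after dual depletion and 192.3, 182.3 and 207.4 with siStag2 in Pds5a-/-. All knockout libraries were at least 2 times the highest WT siGLO library. It rose by 2.46-fold in Pds5a-/- (log2 fold change 1.30, standard error 0.18, adjusted p = 6.88e-06), 3.95-fold in Pds5b-/- (log2 fold change 1.98, standard error 0.17, adjusted p = 1.09e-08) and 3.98-fold after dual depletion (log2 fold change 1.99, standard error 0.17, adjusted p = 2.59e-09).

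Within Pds5a-/- cells Tdrd1 rose further with siPds5b (log2 fold change 0.70, standard error 0.16, adjusted p = 0.00353) and was the member called with siStag2 (log2 fold change 0.86, standard error 0.16, adjusted p = 0.00227). With siStag1 its counts were 148.2, 202.2 and 161.2 and its log2 fold change 0.67 (adjusted p = 0.0668). The siPds5b call was lost without Pds5a-/- siGLO replicate 1 or 3 or Pds5a-/- siPds5b replicate 1 or 2, left out 1 at a time (adjusted p 0.0115 to 0.0295), and that of siStag2 without Pds5a-/- siGLO replicate 1 or Pds5a-/- siStag2 replicate 1 or 3, left out 1 at a time (adjusted p 0.011 to 0.0153). Pds5b-/- was also above Pds5a-/- (log2 fold change 0.68, standard error 0.16, adjusted p = 0.00203), a call lost without Pds5b-/- siGLO replicate 1 (adjusted p of 0.0108).

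Mael, a piRNA protein of the nuage on chromosome 1 from 166201201 to 166238747, had normalized counts of 321.4, 223 and 203.4 in WT siGLO, 497.7, 408.7 and 411.6 in Pds5a-/-, 347.3, 246.3 and 265 in Pds5b-/- and 1024, 892.5 and 881.1 after dual depletion. Pds5b-/- overlapped WT siGLO, and dual depletion lay above every other library. The change after dual depletion was 3.73-fold against WT siGLO (log2 fold change 1.90, standard error 0.21, adjusted p = 1.12e-06) and 2.12-fold against Pds5a-/- siGLO (log2 fold change 1.09, standard error 0.21, adjusted p = 0.00133), the latter lost without Pds5a-/- siGLO replicate 2 (adjusted p of 0.0112). The rise in Pds5a-/- alone (log2 fold change 0.81, standard error 0.22, adjusted p = 0.00829) was lost without WT siGLO replicate 2 or 3 or Pds5a-/- siGLO replicate 1, 2 or 3, left out 1 at a time (adjusted p 0.0188 to 0.0521).

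Tdrd12, a helicase with Tudor domains on chromosome 7 from 35469098 to 35537745, went in opposite directions in the knockouts. Its normalized counts were 1035, 929.3 and 906.3 in WT siGLO, 1532, 1720 and 1644 in Pds5a-/-, 649.2, 709.9 and 815.4 in Pds5b-/- and 1057, 1045 and 1173 after dual depletion. Pds5a-/- was above and Pds5b-/- below WT siGLO in every library. It rose in Pds5a-/- (log2 fold change 0.77, standard error 0.11, adjusted p = 7.54e-06) and fell in Pds5b-/- (log2 fold change -0.40, standard error 0.11, adjusted p = 0.00677), and the direct comparison of Pds5b-/- with Pds5a-/- gave a lower level in Pds5b-/- (log2 fold change -1.17, standard error 0.11, adjusted p = 1.99e-08). The Pds5b-/- call against WT siGLO was lost without WT siGLO replicate 1, 2 or 3 or Pds5b-/- siGLO replicate 1 or 2, left out 1 at a time (adjusted p 0.0126 to 0.0524). siPds5b lowered it in Pds5a-/- cells (log2 fold change -0.58, standard error 0.11, adjusted p = 0.000457), and siStag2 was above siPds5b there (log2 fold change 0.52, standard error 0.11, adjusted p = 0.00253), a call lost without Pds5a-/- siPds5b replicate 1 or 2 or Pds5a-/- siStag2 replicate 2 or 3, left out 1 at a time (adjusted p 0.0135 to 0.0174).

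Stk31, a kinase-like Tudor protein on chromosome 6 from 49395604 to 49469501, fell in Pds5a-/- cells. Its normalized counts were 403.9, 263.6 and 279.5 in WT siGLO, 122.9, 123.5 and 114.7 in Pds5a-/-, 337.8, 218.3 and 241.7 in Pds5b-/- and 139.4, 120.2 and 136.5 after dual depletion. It was 2.63-fold lower in Pds5a-/- (log2 fold change -1.39, standard error 0.17, adjusted p = 1.09e-06) and 2.39-fold lower after dual depletion (log2 fold change -1.26, standard error 0.16, adjusted p = 1.37e-06), while Pds5b-/- overlapped WT siGLO (log2 fold change -0.25, adjusted p = 0.227) and was above Pds5a-/- (log2 fold change 1.14, standard error 0.17, adjusted p = 1.55e-05). With siStag1 in Pds5a-/- cells the counts were 214.1, 220 and 219.2, above siGLO and siStag2 and below WT siGLO in every library. Between the STAG siRNAs, siStag2 was lower (log2 fold change -0.89, standard error 0.17, adjusted p = 0.00776), a call lost without any 1 of the 6 libraries (adjusted p 0.0242 to 0.0433).

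Tdrd5, a Tudor protein needed for retrotransposon silencing, had 122, 126.2 and 137.3 normalized counts in WT siGLO, 206.2, 249.7 and 182.2 in Pds5a-/- and 213.1, 209.4 and 208.3 after dual depletion. It rose in both (log2 fold change 0.73, standard error 0.14, adjusted p = 0.000503, and log2 fold change 0.71, standard error 0.14, adjusted p = 0.000309), without overlap with WT siGLO. Tdrd7, a granule protein, had 80.77, 116 and 119.1 in WT siGLO and 174, 252.9 and 224.3 after dual depletion (log2 fold change 1.04, standard error 0.28, adjusted p = 0.0048), a call lost without WT siGLO replicate 1 or 2 or Pds5a-/- siPds5b replicate 2 or 3, left out 1 at a time (adjusted p 0.0107 to 0.03). Piwil2, a PIWI protein, had 542.4, 483.5 and 417.3 in Pds5a-/- and 832.9, 751.7 and 723.1 in Pds5b-/- (log2 fold change 0.68, standard error 0.14, adjusted p = 0.000657, Pds5b-/- higher). Piwil1, Piwil4, Tdrd6 and Tdrd9 passed in none of the 11 comparisons, and Mov10l1 was called after dual depletion (log2 fold change 0.59), a call lost without WT siGLO replicate 2 or 3 or Pds5a-/- siPds5b replicate 1 or 3, left out 1 at a time (adjusted p 0.0119 to 0.0268).

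Among the genes of meiotic entry and germ cell transcription, 2 of 4 rose and 1 fell after dual depletion (17.4% and 14.6% of all genes), or 1 and 0 without WT siGLO replicate 1. In each knockout 0 rose and 1 fell, with or without that library, where 8.12% of all genes were lower in Pds5a-/- and 8.57% in Pds5b-/-. Brdt, the testis bromodomain protein, on chromosome 5 from 107331159 to 107387058, had normalized counts of 40.39, 24.78 and 34.73 in WT siGLO, 49.77, 45.83 and 44.34 in Pds5a-/-, 66.5, 42.87 and 41.74 in Pds5b-/- and 125.2, 110.9 and 133.6 after dual depletion. Of the 21 libraries, the 3 of dual depletion were above 100 and the others at 72.6 or below. The change was 3.65-fold against WT siGLO (log2 fold change 1.87, standard error 0.22, adjusted p = 3.75e-07) and 2.64-fold against Pds5a-/- siGLO (log2 fold change 1.40, standard error 0.22, adjusted p = 7.77e-05). With siStag2 it was below dual depletion (log2 fold change -0.88, standard error 0.21, adjusted p = 0.00888), a call lost without any 1 of the 6 libraries (adjusted p 0.0181 to 0.0501).

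Sohlh2, a helix-loop-helix factor of spermatogonia and oocytes, on chromosome 3 from 55182028 to 55209957, had normalized counts of 421.9, 317.7 and 334.9 in WT siGLO, 202.1, 146.8 and 152.3 in Pds5a-/-, 162.6, 160.5 and 149.5 in Pds5b-/- and 243.3, 217.7 and 238.2 after dual depletion. All 3 groups were below WT siGLO in every library. It fell in Pds5a-/- (log2 fold change -1.10, standard error 0.15, adjusted p = 7.03e-06), in Pds5b-/- (log2 fold change -1.19, standard error 0.15, adjusted p = 2.95e-06) and after dual depletion (log2 fold change -0.62, standard error 0.15, adjusted p = 0.00138), the last lost without WT siGLO replicate 1 (adjusted p of 0.017). Dual depletion was above Pds5a-/- siGLO in every library, with a log2 fold change of 0.48 that missed the threshold (adjusted p = 0.0332). Figla, a transcription factor of oocytes, had few reads, with raw counts of 0, 3 and 0 in WT siGLO and 13, 5 and 5 after dual depletion. The pooled rates differed by 8.08 times (95% interval 2.44 to 42, counting error only). Every other group was also above the 3 counts of WT siGLO, with ratios from 3.87 in Pds5a-/- siGLO to 12.5 with siStag1, and WT siPds5b at 5.93 (1.68 to 32). The call was lost without WT siGLO replicate 1 or 3 or Pds5a-/- siPds5b replicate 1, left out 1 at a time (adjusted p 0.04 to 0.0523). Stra8, which starts meiosis in response to retinoic acid, passed in none of the 11 comparisons, and its WT siGLO counts were 366.9, 178 and 210.9.

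Of the 6 other germ cell genes, 3 rose and 1 fell after dual depletion (17.4% and 14.6% of all genes), with the same counts without WT siGLO replicate 1. In Pds5a-/- 1 rose and 1 fell (9.63% and 8.12% of all genes), and 2 and 1 without that library. In Pds5b-/- 1 rose and 2 fell (9.64% and 8.57%), and 1 and 1 without it. Tex13 had the largest called change of the 39 members in each knockout. It is an X-linked testis gene on chromosome X from 140808307 to 140813433, listed by RefSeq as Tex13b, with normalized counts of 17.19, 11.26 and 8.269 in WT siGLO, 69.07, 45.83 and 53.01 in Pds5a-/-, 110.8, 122.6 and 107.7 in Pds5b-/- and 78.13, 65.3 and 64.78 after dual depletion. No library overlapped WT siGLO, and Pds5b-/- was the highest group. The changes were 4.52-fold (log2 fold change 2.18, standard error 0.27, adjusted p = 1.92e-06), 9.19-fold (log2 fold change 3.20, standard error 0.26, adjusted p = 3.61e-09) and 5.62-fold (log2 fold change 2.49, standard error 0.27, adjusted p = 6.35e-08), and Pds5b-/- was above Pds5a-/- (log2 fold change 1.02, standard error 0.21, adjusted p = 0.000858).

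Tex14, which keeps germ cell bridges open, on chromosome 11 from 87405065 to 87555823, had normalized counts of 1213, 919.2 and 912.1 in WT siGLO, 556.6, 519.1 and 552.3 in Pds5a-/-, 780.1, 726.8 and 699.8 in Pds5b-/- and 433.3, 400.1 and 469.4 after dual depletion. It fell after dual depletion (log2 fold change -1.23, standard error 0.12, adjusted p = 1.05e-08), in Pds5a-/- (log2 fold change -0.90, standard error 0.11, adjusted p = 2.61e-06) and in Pds5b-/- (log2 fold change -0.47, standard error 0.11, adjusted p = 0.00318), and none of these groups overlapped WT siGLO. Dual depletion was below Pds5a-/- siGLO in every library, but the difference was not called (log2 fold change -0.32, adjusted p = 0.0665). The Pds5b-/- call was lost without WT siGLO replicate 1 or Pds5b-/- siGLO replicate 2 or 3, left out 1 at a time (adjusted p 0.0161 to 0.051), and its difference from Pds5a-/- (log2 fold change 0.44, standard error 0.12, adjusted p = 0.00551) was lost without Pds5a-/- siGLO replicate 2 or 3 or Pds5b-/- siGLO replicate 1 or 2, left out 1 at a time (adjusted p 0.0112 to 0.0253). Slc25a31, the ADP/ATP carrier of male germ cells, had 48.12, 15.77 and 23.98 in WT siGLO and 76.36, 74.63 and 68.77 after dual depletion (log2 fold change 1.29, standard error 0.31, adjusted p = 0.00153), a call lost without WT siGLO replicate 2 or 3, left out 1 at a time (adjusted p 0.0137 to 0.0141).

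Rpl10l, the ribosomal retrogene of spermatocytes, had 651.3, 420.2 and 539.2 normalized counts in WT siGLO, 310.3, 263.2 and 294.1 in Pds5b-/- and 683.7, 705.9 and 595 after dual depletion. It fell in Pds5b-/- (log2 fold change -0.90, standard error 0.15, adjusted p = 9.58e-05) and was lower with siStag2 than after dual depletion (log2 fold change -0.89, standard error 0.15, adjusted p = 0.000459). Its parent Rpl10 had a mean of 26370 normalized counts in WT siGLO and 22190 in Pds5b-/- (log2 fold change -0.25, adjusted p = 0.0332), and reads that fit both copies cannot be told apart. Tex19.1 was called after dual depletion (log2 fold change 0.47), lost without WT siGLO replicate 2 or 3 or Pds5a-/- siPds5b replicate 1 or 2, left out 1 at a time (adjusted p 0.0352 to 0.0387), and in Pds5b-/- against Pds5a-/- (-0.61), lost without Pds5a-/- siGLO replicate 1 or Pds5b-/- siGLO replicate 2, left out 1 at a time (adjusted p 0.0102 to 0.0111). With siStag2 it was lower than after dual depletion (-0.57), lost without Pds5a-/- siPds5b replicate 1 or 2 or Pds5a-/- siStag2 replicate 1 or 3, left out 1 at a time (adjusted p 0.0452 to 0.0533).

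The effect of siPds5b was compared between genotypes by the difference of its log2 fold changes in Pds5a-/- and WT cells. edgeR called 0 of the 39 members, against 1.48% of all genes. At an unadjusted p under 0.05 were 12 members and 2589 of all 14963 genes. The lowest adjusted p was that of Brdt (difference 1.28, standard error 0.33, adjusted p = 0.0257), followed by Tdrd12 (-0.56, adjusted p = 0.0319). DESeq2 called 2 members, Brdt (adjusted p = 0.00954) and Mael (adjusted p = 0.00945). With edgeR the difference of Mael was 1.03 (adjusted p = 0.0682), and without WT siPds5b replicate 1 it was called (difference 1.46, adjusted p = 0.000642). Hormad1, an axis protein, and Mei1, needed for meiotic breaks, passed in none of the 11 comparisons, nor did Tex101 or Nanos3, and the lowest adjusted p after dual depletion among the 11 members that never passed was 0.0268, of Tex101. Between the knockouts themselves 13 members were called (33.3%, against 19.2% of all genes), 9 higher and 4 lower in Pds5b-/-, where 9.46% of all genes were higher and 9.74% lower.

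Gm1564, the older name of Meioc, a gene that keeps meiotic prophase going, had raw counts of 492, 263 and 297 in WT siGLO, 849, 673 and 741 in Pds5a-/-, 1016, 889 and 954 in Pds5b-/- and 1151, 1044 and 1136 after dual depletion. Every library of the last 3 groups was above WT siGLO, and all 3 changes were called, with log2 fold changes of 1.19 (adjusted p = 8.68e-06), 1.58 (adjusted p = 2.28e-07) and 1.74 (adjusted p = 1.63e-08). 1700123I01Rik, the older name of Majin, which ties telomeres to the nuclear envelope, had 29, 25 and 26 in WT siGLO and was called in none of the 11 comparisons.

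The machinery that silences germline promoters was read from lists of genes outside the members. Of 14 tested genes of PRC1.6, 1 rose and 5 fell after dual depletion, where 17.4% of all genes were higher and 14.6% lower, the background for each list in that comparison. E2f6 rose (log2 fold change 0.37, standard error 0.08, adjusted p = 0.000641), and Tfdp1, the partner of E2F proteins, fell from a mean of 5809 to 3500 normalized counts (log2 fold change -0.73, standard error 0.07, adjusted p = 4.35e-09); Wdr5 (log2 fold change -0.60), Ring1 (-0.45), Hdac2 (-0.37) and Rnf2 (-0.28) fell too. In Pds5a-/- 1 rose and 3 fell (9.63% and 8.12% of all genes), and in Pds5b-/- 0 rose and 2 fell (9.64% and 8.57%). The median log2 fold change of the list after dual depletion was -0.10.

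The list of 8 genes of DNA methylation holds Tet1, Tet2 and Tet3 beside the methyltransferases, so its counts do not stand for silencing genes alone. Of the 8, 4 rose (Dnmt3a, Dnmt3b, Dnmt3l and Tet3) and 2 fell after dual depletion. Dnmt3l, the cofactor of the de novo methyltransferases, went from a mean of 5593 to 19600 normalized counts (log2 fold change 1.81, standard error 0.24, adjusted p = 1.68e-05), and Dnmt3a from 3166 to 10160 (log2 fold change 1.68, standard error 0.25, adjusted p = 6.75e-05). Tet2, which oxidises methylcytosine, fell (log2 fold change -1.32, standard error 0.17, adjusted p = 7e-06), as did Uhrf1 (log2 fold change -0.33). For this list 3 rose (Dnmt3a, Dnmt3b and Dnmt3l) and 2 fell in Pds5a-/- (9.63% and 8.12% of all genes). In Pds5b-/- 2 of the 8 rose (Dnmt3a and Dnmt3b) and 1 fell (9.64% and 8.57%). Of the 7 genes of H3K9 methylation, 2 rose and 1 fell after dual depletion, the latter Trim28 (-0.56). In Pds5b-/- 4 rose and 0 fell (9.64% and 8.57% of all genes), and in Pds5a-/- 0 rose and 0 fell. DNA methylation itself was not measured in these libraries.

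Other genes of the same pathways were counted as well. Of 14 tested meiosis genes outside the members, 3 rose and 1 fell after dual depletion, with a median log2 fold change of 0.05. Spata22, a partner of the recombinases, rose (log2 fold change 1.61, standard error 0.35, adjusted p = 0.000652), as did its partner Meiob (log2 fold change 1.03), and Mlh3, a mismatch repair protein of crossovers, fell (log2 fold change -0.87, standard error 0.08, adjusted p = 1.36e-08). Rad21l, a meiotic kleisin, was called higher from a mean of 1.31 to 17.1 normalized counts, few reads in WT siGLO. Of 5 further piRNA genes, 0 rose and 2 fell, Fkbp6 (-1.83) and Ddx25 (-0.94).

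Regulators of primordial germ cells, the embryonic founders of the germline, split. After dual depletion 2 of 9 rose and 3 fell. Dppa3, a maternal factor that guards methylation, rose from a mean of 177.2 to 967.2 normalized counts (log2 fold change 2.46, standard error 0.24, adjusted p = 2.59e-07) and was also higher in Pds5a-/- (2.61) and Pds5b-/- (1.45). Prdm14, needed for germ cell specification and naive pluripotency, fell from 592 to 76.9 (log2 fold change -2.95, standard error 0.18, adjusted p = 8.49e-12), Kit fell (log2 fold change -2.19, standard error 0.20, adjusted p = 8.48e-08) and Prdm1 fell (-0.99).

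Summed markers of some cell types differed between WT siGLO and dual depletion, and those of others overlapped. The summed normalized counts of 8 embryonic stem cell markers, none at 0 in all libraries, were between 106400 and 109100 in WT siGLO, 83830 and 90230 in Pds5a-/-, 71650 and 83670 in Pds5b-/- and 60520 and 63730 after dual depletion, and 7 of the 8 fell in the last comparison. The 8 markers of two-cell-like cells, a rare state of mESC cultures, summed to between 1395 and 2073 in WT siGLO, 184.1 and 288.5 in Pds5a-/-, 716.8 and 1078 in Pds5b-/- and 1156 and 2183 after dual depletion, so dual depletion overlapped WT siGLO. The 5 markers of the somatic gonad summed to between 83.4 and 98 in WT siGLO and 204.3 and 235.3 after dual depletion, where Wt1 and Foxl2 rose. Those of feeder fibroblasts summed to between 1068 and 1493 and to between 442.2 and 1305, those of primitive endoderm to between 805.4 and 1390 and to between 938.9 and 1666, and those of neuroectoderm to between 1959 and 2691 and to between 1049 and 1228, in the same groups. Most of the neuroectoderm sum is Nes (mean 2074 in WT siGLO and 910.4 after dual depletion). Nes and Sox1 fell and Neurog2 rose after dual depletion, and Pax6 and Sox1 rose in Pds5b-/-. The part of these changes in the members' values was not tested.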

How the data were processed

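Poly-A RNA libraries of 21 mESC samples were analysed. The authors sequenced paired-end reads, aligned them to mm10 with STAR and deposited raw read counts per gene symbol, without normalization. The counting tool, gene annotation and strand setting are not given in the sources used here, and without strand an antisense or overlapping gene cannot be told apart. Counts in 14963 of 23412 genes passed edgeR's filter, and 1 quasi-likelihood model of the 7 groups was fitted with edgeR 4.0.16 in R 4.3.3 (TMM scaling, robust dispersion, Benjamini-Hochberg adjustment, adjusted p under 0.01). Normalized counts are scaled to a mean effective library size of 19816922, and a standard error is the size of a log2 fold change divided by the square root of F. Members, lists, motifs and tests were chosen with earlier results of these data known. Members called in any comparison were to be described singly, at most 25 by the size of the change, with Stag3, Smc1b, Rec8, Dazl and Ddx4 always; the others are given by counts, and Mov10l1 and Tex19.1, which fell outside the 25, are named with their calls. Libraries with the same number were taken as paired where every pair correlated over 0.1 in deviation, over 12029 genes: siPds5b in WT (lowest 0.336) and, within Pds5a-/-, siPds5b (0.336), siStag1 (0.175) and siStag2 (0.135). Alternatives were DESeq2 1.42.0, RLE or library size scaling, no filter, at least 10 counts in every library, only the groups compared, an adjusted p under 0.05, a log2 fold change of at least 1, the block and leaving out each library. The fit was tested on simulated data. Plots were made with matplotlib 3.10.9 in Python 3.11.15, positions came from an mm10 annotation that held 94.1% of tested symbols, and promoters from RefSeq on GRCm38.p6.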

Additional observations from a re-analysis of the deposited data

Results flagged for a closer look

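Tdrd12, a Tudor helicase of the piRNA pathway, differed between the knockouts in direction. It was higher than WT siGLO in all 3 Pds5a-/- libraries (log2 fold change 0.77) and lower in all 3 Pds5b-/- libraries (-0.40), and edgeR's direct test of Pds5b-/- against Pds5a-/- gave -1.17 on the log2 scale, with an adjusted p of 1.99e-08 and a standard error of 0.11. It was the only member called in opposite directions in the knockouts among the 39 tested. The Pds5b-/- call against WT siGLO was lost in 5 of the 6 fits that left out 1 library (adjusted p 0.0126 to 0.0524). The Pds5a-/- call and that between the knockouts were lost in 0 of 6.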

How the results depend on the processing

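Of 72 calls of a member in a comparison, 26 were kept under every alternative, 46 were lost under at least 1, and 0 changed sign. All 72 were kept with DESeq2, RLE scaling, library size scaling and the replicate block, 59 with only the groups compared in the model and 33 where a change of 1 or more on the log2 scale was also required. That requirement left 7 of 14 members in Pds5a-/- against WT siGLO, 6 of 12 in Pds5b-/-, 12 of 21 after dual depletion, 3 of 5 for siPds5b in Pds5a-/-, 5 of 13 between the knockouts, and 0 for siStag1 and siStag2 in Pds5a-/-, siStag2 against siStag1 and siStag2 against dual depletion. For siStag1 in Pds5a-/- the count went from 1 to 4 with DESeq2, with an adjusted p under 0.05 and with the replicate block. For siStag2 in Pds5a-/- it went from 1 to 0 with only the groups compared and to 2 at 0.05. For siStag2 against siStag1 it went from 1 to 2 with DESeq2, no filter or only the groups compared, and to 4 at 0.05 or with the block, where the numbers do not pair the libraries. For siStag2 against dual depletion it went from 4 to 2 with no filter. For the difference of siPds5b effects it went from 0 to 2 with DESeq2 and at 0.05. The block kept every call and moved no other count by over 1.5 times. Leaving out 1 library gave 10 to 14 members in Pds5a-/-, 10 to 13 in Pds5b-/-, 0 to 0 for siPds5b in WT, 15 to 18 after dual depletion, 4 to 5 for siPds5b in Pds5a-/-, 0 to 1 for siStag1, 0 to 1 for siStag2, 10 to 13 between the knockouts, 0 to 0 for siStag2 against siStag1, 1 to 3 for siStag2 against dual depletion and 0 to 1 for the difference. These fits assume that the remaining pair varies like the other groups. The causes were not tested. Depth limits Figla, Tex101 and Tdrd6, with 0 to 13, 0 to 24 and 1 to 14 raw counts per library.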
